A study of Yarrowia lipolytica CLIB122 with 6 samples.

Results

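Of the 6452 transcripts listed for Yarrowia lipolytica, 96 made up a group of moderately expressed transcripts whose level was at least 2 times as high in strain A24 as in strain C24. They were chosen by their FPKM in the 6 libraries, among the 6279 transcripts with an NCBI gene number below 7000000. The mean over all 6 libraries had to be at least 10 and under 100 FPKM (a level in fragments scaled by transcript length and by the mapped fragments of the library), the mean of A24 at least 2 times that of C24, and every A24 value had to lie above every C24 value. In the same range of levels there were 3188 transcripts, so the members were 3.01% of them. The difference between the strains is what chose the members. It is therefore described here and not tested.

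RNA-Seq was measured in 6 libraries, 3 of A24 and 3 of C24, from cells taken at 24 h in the initial logarithmic phase. The labels give the strains only as A24 and C24. The study compared YlΔA1-FAR with WT-FAR by RNA-Seq, and A24 is read here as YlΔA1-FAR, the A1 disruptant, and C24 as the control WT-FAR. Both derive from strain ATCC 201249, of mating type MATA with the alleles leu2-270, lys8-11, ura3-302 and PEX17-HA, and both carry the fatty acyl-CoA reductase gene FAR of Marinobacter aquaeolei under the TEFin promoter with a LEU2 marker, placed in chromosome F at IntF. YlΔA1-FAR in addition carries a short deletion made with CRISPR/Cas9 in the A1 gene, YALI0_A00913g, on chromosome A. The study speaks of biological replicates for the cultivations sampled for RNA-Seq, the labels do not say which culture each library came from, and the number of clones per strain is not given in the sources used here. The p-values rest on the spread between these libraries, drawn toward that of other transcripts of like level. The A1 transcript itself, whose level bears on this reading of the labels, was not analysed here, since no table at hand links its tag to a gene number. By the study's account the disruption lowered the level of this transcript without fully disabling the gene. The RNA came from whole cultures, in which a higher level per cell and more cells with the transcript cannot be told apart.

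Yarrowia lipolytica is an oleaginous yeast that stores much of its carbon as lipid, and fatty acyl-CoA reductase turns fatty acyl-CoA into fatty alcohols. The protein of the A1 gene is weakly similar to Ynd1 of Saccharomyces cerevisiae, an apyrase of the Golgi that removes phosphate from nucleoside di- and triphosphates and so helps nucleotide sugars enter the Golgi for glycosylation. Unplanned differences between the strains were not examined here, and the study describes genome sequencing for other transformants only. For YlΔA1-FAR the study reports elevated growth, a higher ATP content and, at a later time, more fatty alcohols than for WT-FAR. It ascribes the transcriptional changes to the A1 disruption and to the accumulated fatty alcohols. These differences go with the strain, so their part in the levels below cannot be told apart from that of the disruption. The guide that directed Cas9 to A1 is shown because its target is the only site at which the strains were made to differ by design. It was read from the oligonucleotides of the study without their overhangs, 5′ to 3′.
A1 guide: cggtggccaagaggacgtca
Of the members, 92 had a YALI1 locus tag in RefSeq's gene table for assembly ASM176148v1, which belongs to a different strain, CLIB89 (W29). Neither the deposited table nor this table names a product, so members are given by number and tag, and no role is assigned to them.

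The summed FPKM was 1266078 to 1303563 in A24 and 1208546 to 1226334 in C24. Across all transcripts tested, the Pearson correlation of log2 values was 0.993 to 0.996 within a strain and 0.964 to 0.969 between the strains. They are computed across genes and describe the libraries, since genes do not replicate a condition. The number of fragments per library is unknown. Weak transcripts, at 0.1 to 2 FPKM, move in steps of whole fragments, and the ratio of their values between libraries of 1 strain, for the 5 pairs examined, was most often 0.99 to 1.01 (28 to 48 transcripts per pair, against at most 14 in any other interval of that width, among ratios within about 10% of equality). Libraries of nearly equal depth would give such a peak, but ratios farther from equality were not examined, so the depth is not settled by it. Between the strains no single ratio stood out in this window.

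The members rose from a median of 12.9 to 13.3 FPKM across the C24 libraries to a median of 34.2 to 36.2 FPKM across the A24 libraries. Together they held 0.144 to 0.148% of the FPKM of a C24 library and 0.410 to 0.429% of that of an A24 library. The ratio of the mean of A24 to that of C24 had a median of 2.58 and reached 20.6. Over all 3188 transcripts of this level the median ratio was 0.936, and the central 50% lay between 0.813 and 1.12. The members thus lie in the upper tail of a distribution whose centre is slightly below equal levels. Low levels were more frequent among the members, with 54.2% of them under 30 FPKM over the 6 libraries against 42.3% of all transcripts of this range.

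**Figure D1:**
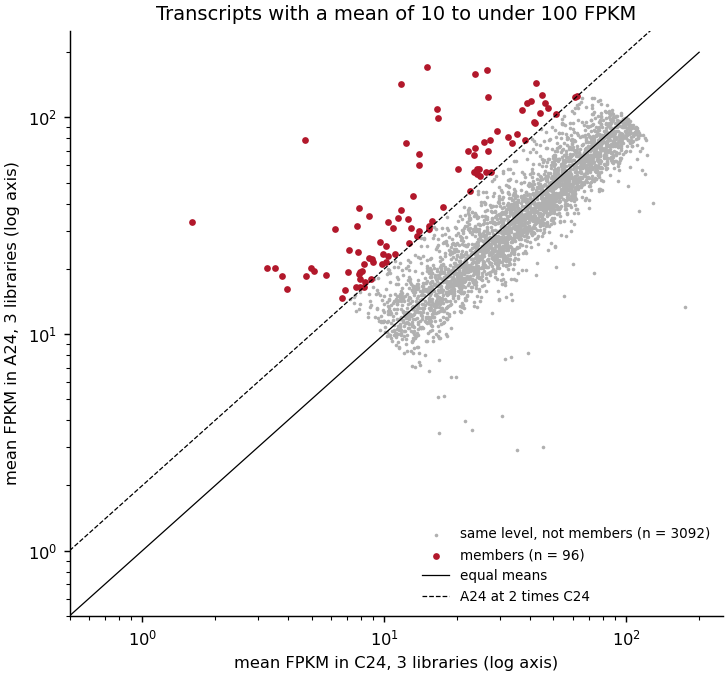
Mean FPKM in A24 against mean FPKM in C24 (3 libraries each, both axes logarithmic) for the 3188 transcripts with a mean of 10 to under 100 FPKM over all libraries. The 96 members (red) lie on or above the dashed line of a ratio of 2, and most of the 3092 other transcripts (grey) lie near the solid line of equal means.

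The same count in the other direction was smaller. At this level, 35 transcripts (1.10%) were at least 2 times as high in C24 as in A24 without overlap, and their median ratio of C24 to A24 was 2.98. With the libraries scaled by median of ratios the counts were 118 and 27, and with equal FPKM totals 81 and 42, so doubled transcripts outnumbered halved ones under each scaling. In a limma comparison of log2(FPKM + 0.1) over the 6052 transcripts that averaged 1 FPKM or more, 3.85% were higher in A24 at a log2 fold change above 1 and a p-value, adjusted after Benjamini and Hochberg, under 0.05, and 2.71% were lower at the mirrored thresholds. Within the range of 10 to under 100 FPKM the shares were 3.04% higher and 1.07% lower. The members past these thresholds were 95 of 96, a count that follows from their choice. All A24 values were above all C24 values in 28.3% of the transcripts tested, and in every member by the rule. The median log2 fold change was 1.36 over the members and -0.09 over all transcripts tested.

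The doubling was not particular to this level. The same rule found 69 of 1851 transcripts (3.73%) averaging 100 FPKM or more and 61 of 854 (7.14%) with a mean of 1 to under 10 FPKM. Ratios of 4 or more were reached by 21.9% of the members, 13.0% of the doubled abundant transcripts and 19.7% of the doubled weak ones. These shares are given as values, with no test of their differences.

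Ratios under 3 were the most frequent. The ratio was 2 to under 2.5 in 45 members, 2.5 to under 3 in 19, 3 to under 4 in 11, 4 to under 10 in 17 and at least 10 in 4. In C24, 35 members had a mean under 10 FPKM, 25 had 10 to under 20 FPKM and 36 had 20 FPKM or more. In A24, 17 members reached a mean of 100 FPKM or more. The lowest A24 value was at least 2 times the highest C24 value in 66 members, and the median of this gap was 2.27.

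**Figure D2:**
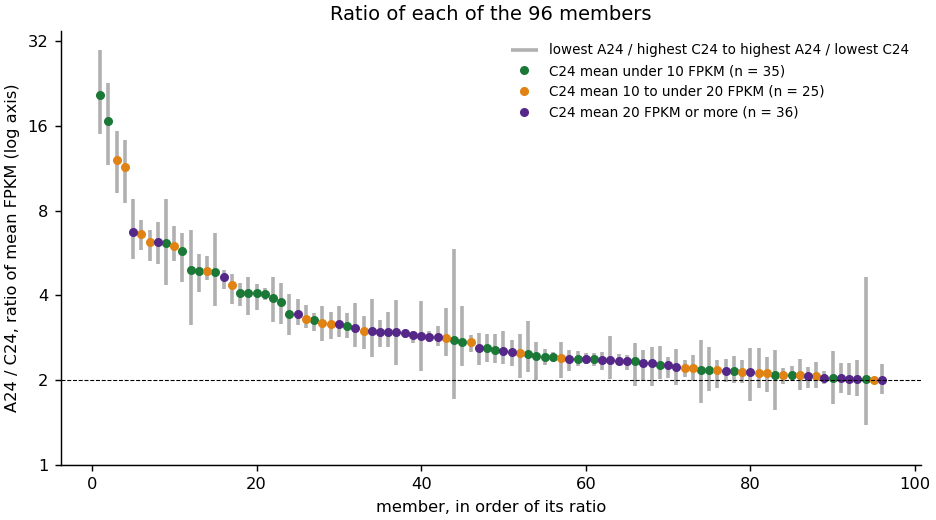
Ratio of the mean FPKM of A24 to that of C24 for each of the 96 members, in order of the ratio (logarithmic axis), coloured by the mean level in C24. Grey lines run from the lowest A24 over the highest C24 value to the highest A24 over the lowest C24 value, and the 4 members of largest ratio stand apart at 11.4 to 20.6.

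The 4 members with ratios of at least 10 started from different levels in C24, with means of 1.607, 4.697, 11.72 and 15.07 FPKM against 13.0 FPKM in the median member. Gene 2908638 (YALI1_F15641g) had 1.29, 1.86 and 1.67 FPKM in C24 replicates 1, 2 and 3 and 32.68, 27.96 and 38.44 FPKM in A24 replicates 1, 2 and 3, a ratio of 20.6. Its lowest A24 value was 15.0 times its highest C24 value, the widest gap of the members. Gene 2906073 (YALI1_A20965g) had 3.92, 4.24 and 5.93 FPKM in C24 and 77.07, 68.63 and 89.13 FPKM in A24, a ratio of 16.7. Both were weakly expressed in C24, below most members.

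The next 2 members were among the strongest of the group in A24. Gene 2906274 (YALI1_A00148g) had 10.25, 13.34 and 11.57 FPKM in C24 and 145.51, 123.44 and 157.11 FPKM in A24, a ratio of 12.1. Gene 2906816 (YALI1_B14544g) had 13.6, 17.64 and 13.97 FPKM in C24 and 170.97, 150.34 and 194.12 FPKM in A24, a ratio of 11.4. Its mean in A24, 171.8 ± 21.9 FPKM (SD, n = 3), was the highest of any member, against 15.07 ± 2.23 in C24. In all 4 transcripts A24 replicate 2 was the lowest and A24 replicate 3 the highest library of the strain.

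The other members among the 10 largest ratios had ratios of 6.0 to 6.73. Gene 2908063 (YALI1_F20742g) had 20.34, 25.14 and 25.48 FPKM in C24 and 160.51, 137.43 and 179.38 FPKM in A24. Gene 2909151 (YALI1_C01393g) had 26.09, 28.57 and 25.4 FPKM in C24 and 161.77, 147.93 and 185.22 FPKM in A24. In the control both thus lay above the median member, which had 13.0 FPKM. Gene 2909151 also had the highest mean of all members over the 6 libraries, 95.83 FPKM. Gene 2907410 (YALI1_B25258g) rose from 15.93, 16.11 and 17.3 to 108, 100.25 and 118.49 FPKM, and gene 2907534 (YALI1_B17569g) from 15.1, 17.71 and 17.05 to 99.13, 93.8 and 106.16 FPKM. Gene 2910500 (YALI1_D08564g) rose from 12.2, 11.88 and 12.73 to 79.38, 67.61 and 81.06 FPKM. The C24 libraries were most even in genes 2910500 and 2907410 (coefficients of variation 3.50% and 4.53%) and less so in gene 2907534 (8.17%). Gene 2910587, which has no tag in the table used, was weaker, with 2.97, 3.53 and 3.32 FPKM in C24 and 18.76, 15.34 and 26.12 FPKM in A24, and the spread of its A24 values was large (coefficient of variation 27.4%).

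**Figure D3:**
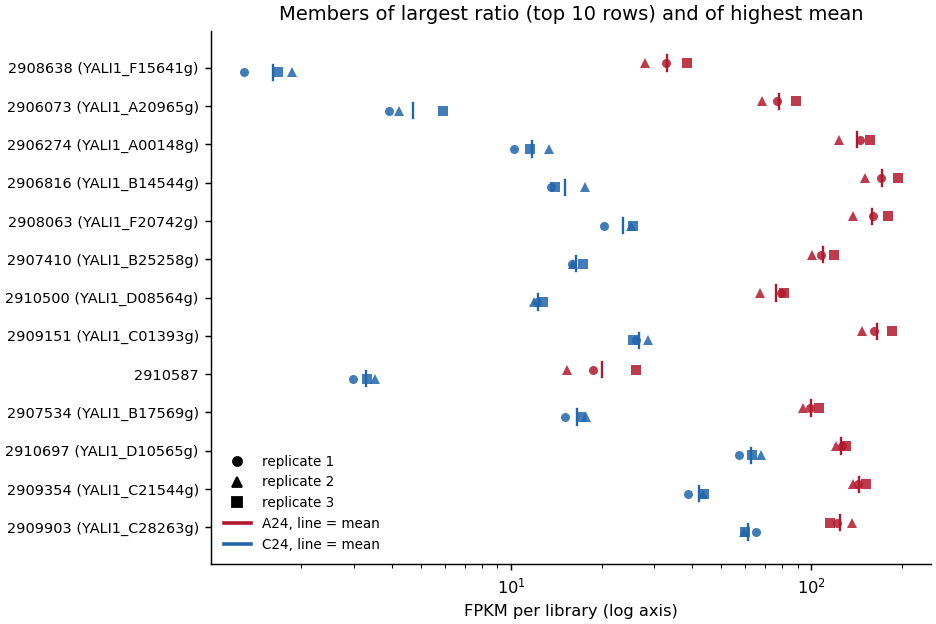
FPKM per library (logarithmic axis) of the 10 members with the largest ratios, from the top, and of the members with the highest mean that are not among them. Symbols mark replicates, colours strains, and short lines the mean of 3 libraries; no A24 value touches a C24 value, and replicate 2 (triangles) is the lowest A24 library in each of the top 10 rows.

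Members of high mean level included some that only just doubled. Gene 2909354 (YALI1_C21544g) had 38.93, 43.54 and 44.03 FPKM in C24 and 142.85, 137.87 and 151.47 FPKM in A24, a ratio of 3.42. Gene 2910697 (YALI1_D10565g) had 57.21, 67.79 and 63.43 FPKM in C24 and 126.51, 120.33 and 130.59 FPKM in A24. Gene 2909903 (YALI1_C28263g) had 65.15, 59.54 and 60 FPKM in C24 and 121.85, 136.19 and 115.38 FPKM in A24. The last 2 had ratios of 2.00 and 2.02, so a high level and a large ratio did not go together throughout the group.

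The limit of 2 separated transcripts of almost the same behaviour. Just inside it, besides genes 2910697 and 2909903, were genes 2911113 (YALI1_D22961g), 2912273 (YALI1_E05972g) and 2910383 (YALI1_D32369g), with means of 30.69, 16.54 and 55.71 FPKM in A24 and 15.31, 8.25 and 27.62 FPKM in C24. Just outside it was gene 2906718 (YALI1_B13915g), with a mean of 14.48 FPKM in A24 and 7.24 FPKM in C24, a ratio of 1.9995. It was followed by genes 2908154 (YALI1_F02545g), 2907821 (YALI1_F28550g), 2909803 (YALI1_C07562g) and 2907386 (YALI1_B21594g), with ratios of 1.9980, 1.9956, 1.9779 and 1.9742. Gene 2911113 was the 1 member not past both thresholds of the limma comparison, with a log2 fold change of 1.00 at 2 decimals. It was also the most even, at 30.79, 30.69 and 30.59 FPKM in A24 and 15.51, 15.03 and 15.39 FPKM in C24. At the limits of level, gene 2912710 (YALI1_E30173g), with a mean of 10.03 FPKM, was a member, and gene 2910417 (YALI1_D01234g), with 9.948 FPKM and a ratio of 5.2, was not. Gene 2909561 (YALI1_C00464g), with 105.2 FPKM and a ratio of 5.80, lay just above the range. The last 3 were chosen after their values were seen. The requirement that the strains do not overlap left out 1 transcript of this level, gene 2908976 (YALI1_F13366g), at 52.6, 103.47 and 131.36 FPKM in A24 and 29.23, 54.35 and 42.22 FPKM in C24.

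A narrow gap between the strains and an uneven library occurred together in some members, but not in all. Gene 2906073 had a coefficient of variation of 23.0% in C24 and a gap of 11.6. Gene 2912273 had 3.99, 9.77 and 10.98 FPKM in C24 and 15.92, 18.51 and 15.2 FPKM in A24. Its lowest A24 value was 1.38 times its highest C24 value, the smallest gap of the group, and C24 replicate 1 stood far below the other 2 libraries. Its doubling rests on that library: without it the log2 fold change was 0.67 in place of 1.12, under the threshold of 1. Gene 2912163 (YALI1_E04531g) had 12.44, 5.99 and 10.33 FPKM in C24 and 21.22, 23.38 and 35.18 FPKM in A24. Here C24 replicate 2 was low and A24 replicate 3 high. The gap of gene 2912163 was 1.71. After gene 2912273 the smallest gaps, 1.57 and 1.64, were those of genes 2905800 (YALI1_A09524g) and 2912075 (YALI1_E02454g). Their values were 16.18 to 18.67 against 7.30 to 10.29 FPKM and 15.98 to 19.31 against 7.59 to 9.77 FPKM. The log2 fold change of gene 2905800 was 0.99 without C24 replicate 1. That of gene 2912075 was 1.00, 0.97 and 0.92 without A24 replicate 1, A24 replicate 3 and C24 replicate 2, each under 1 before rounding. Among the members nearest to the ratio of 2, gene 2910697 fell under 1 without A24 replicate 1 or 3 or C24 replicate 1, gene 2909903 without A24 replicate 2 or C24 replicate 2 or 3, and gene 2910383 without A24 replicate 3 or C24 replicate 1 or 3, with log2 fold changes of 0.93 to 1.00.

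The spread between libraries of 1 strain was described for the members beside other transcripts of their range. The median coefficient of variation over the 96 members was 6.61% in A24 and 6.31% in C24, against 4.82% and 4.46% over the 3092 other transcripts. It was higher still in the 21 members with a ratio of at least 4, with 9.64% in A24 and 8.17% in C24, than in the 75 others, with 5.64% and 6.03%. The limit of 4, and the ranges of level compared next, were set after the values were seen. Over the 6 libraries the members were weaker, with a median mean of 24.0 FPKM against 35.2 FPKM. By strain, the median member had 36.2 FPKM in A24 and 13.0 FPKM in C24. The median coefficient of variation of the doubled abundant transcripts was 4.11% in A24 and 3.66% in C24. For the doubled weak ones it was 9.89% and 14.9%. Whether level accounts for the spread of the members was not tested. Some of the members were also set beside other transcripts of like level in the strain itself. Members under 10 FPKM or at 50 FPKM or more in the strain were not part of this comparison. Between 10 and 20 FPKM the median was 7.14% over 17 members and 6.07% over 759 other transcripts in A24, and 5.88% over 25 members and 6.03% over 675 others in C24. Between 20 and 50 FPKM it was 6.61% over 36 members and 4.91% over 1396 others in A24, and 5.82% over 33 members and 4.62% over 1381 others in C24. Members and others were thus alike in C24 in the lower range, and the members were the more variable in the other 3 comparisons, with no test of the difference. Without A24 replicate 2 the median over all members in A24 was 4.36%, and without A24 replicate 3 it was 4.50%. Both leave 2 libraries in the strain. A coefficient of variation over 20% occurred in 3 members in A24 and in 4 in C24.

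In the members of large ratio the libraries of A24 followed a common order. Among the 21 with a ratio of at least 4, A24 replicate 3 was the highest library of its strain in 19 (90.5%) and replicate 2 the lowest in 16 (76.2%). The exceptions for replicate 3, named after their values were seen, were genes 2910888 (YALI1_D09308g) and 2907699 (YALI1_F06393g), in which replicate 1 was the highest with 20.9 and 63.52 FPKM against 20.67 and 62.71 FPKM in replicate 3. Of the 75 members with smaller ratios, replicate 3 was the highest in 34 (45.3%) and replicate 2 the lowest in 26 (34.7%). Among the other transcripts of this level, replicate 3 was the highest in 37.7% and replicate 2 the lowest in 51.6%. The low position of replicate 2 was thus also the most frequent one among the other transcripts, whereas their highest library was most often replicate 1 (46.3%). Relative to the mean of the strain, the median level of the 21 members was 0.994, 0.904 and 1.089 in A24 replicates 1, 2 and 3. For the other transcripts of this level the medians were 1.015, 0.978 and 1.007.

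In C24 the order was less uniform. Replicate 1 was the lowest library in 13 of the 21 members (61.9%) and in 19.1% of the other transcripts of this level, where replicate 2 was the lowest in 61.5%. The low position of C24 replicate 1 was not particular to the members. It was found in 55.1% of the doubled abundant transcripts and 39.3% of the doubled weak ones. Among the transcripts of this level that were halved in A24 it was found in 5.71%. Over the 96 members, the log2 ratio of the strains and the log2 ratio of A24 replicate 3 to replicate 2 had a Pearson correlation of 0.47 and a Spearman correlation of 0.31. Over the 3092 other transcripts the values were 0.04 and 0.06. These are descriptions across genes that share the same libraries, and the A24 values enter both measures. Replicate 3 was the highest A24 library in 55.2% of all members, 42.0% of the doubled abundant transcripts and 49.2% of the doubled weak ones. With ratios of 4 or more it was the highest in 7 of 9 doubled abundant transcripts and 7 of 12 doubled weak ones, beside 19 of 21 members. Whether the libraries of a strain differed in growth state or in handling was not tested.

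**Figure D4:**
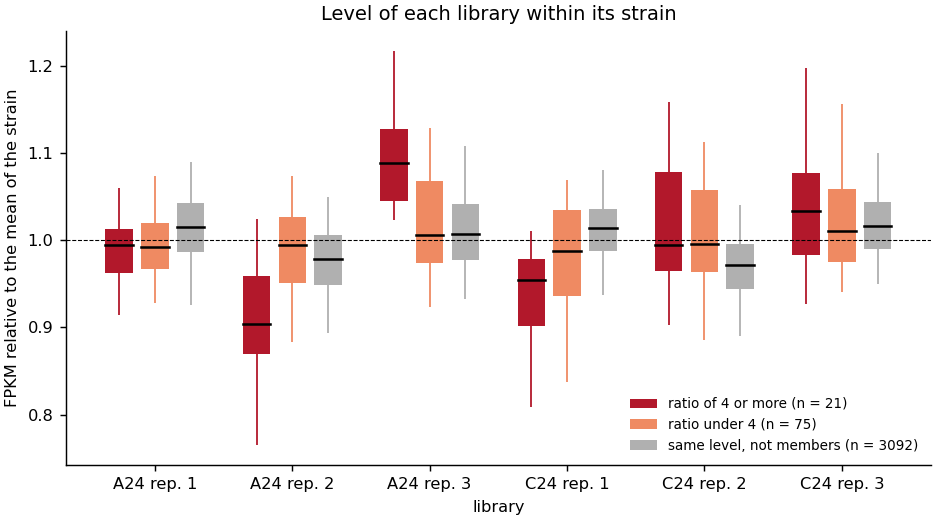
FPKM of each library relative to the mean of its strain, for the 21 members with a ratio of at least 4, the 75 members with smaller ratios and the 3092 other transcripts of the same level. Boxes span the central 50%, lines the 5th to 95th percentile and black bars the median, which for the 21 members is 0.904 in A24 replicate 2 and 1.089 in replicate 3.

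The members were spread over the chromosomes. By the RefSeq table, 28 lay on chromosome E, 19 on D, 17 on F, 13 on C, 8 on B and 7 on A. As a share of the transcripts of the same level this was 3.96% on E, 3.37% on D, 3.07% on C, 2.56% on F, 2.46% on A and 1.74% on B, against 2.96% over all chromosomes. Of the 20 located members with a ratio of at least 4, 8 were on chromosome E, which held 30.4% of all located members and 22.8% of the located transcripts of this level. These counts are small, and the differences between chromosomes were not tested.

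**Figure D5:**
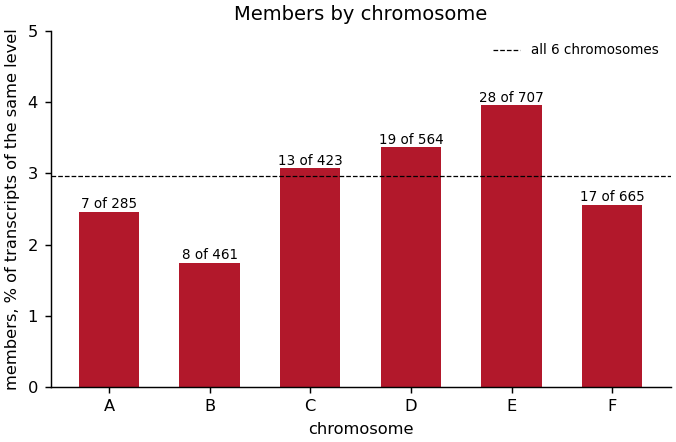
Members as a percentage of the transcripts with a mean of 10 to under 100 FPKM on each chromosome, with the counts above the bars. The dashed line marks 2.96% over all 6 chromosomes, and the bars run from 1.74% on B to 3.96% on E.

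Few members lay side by side. In the order of the 6054 protein-coding genes of the RefSeq table that were also measured, 1 pair of members were direct neighbours, genes 2910887 (YALI1_D09277g) and 2910888 (YALI1_D09308g). The first had 13.31, 13.34 and 12.8 FPKM in C24 and 47.32, 40.93 and 41.72 FPKM in A24. The second had 3.06, 3.76 and 4.53 FPKM in C24 and 20.9, 14.22 and 20.67 FPKM in A24, and in both A24 replicate 1 was the highest library. A further pair was 2 genes apart and another 3 genes apart. No located member overlapped another gene of that table. The matching shares over all genes are not given here, so nothing is read from these counts.

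The genes next to the members were tested in the same limma comparison. Of 172 neighbouring transcripts that were not members, 5 (2.91%) were higher and 4 (2.33%) lower in A24 at both thresholds, against 2.32% and 2.75% of the 5956 tested transcripts that were not members. Both shares were near the background, and nothing is read from them. Their median log2 fold change was -0.10, close to that of all transcripts. The 9 neighbours past the thresholds follow, and were named after their values were seen. The neighbour of the member with the largest ratio, gene 2908637 (YALI1_F15568g), next to gene 2908638, had 58.29, 63.92 and 60.05 FPKM in C24 and 254.75, 245.96 and 269.83 FPKM in A24. It was 4.23 times as high in A24, with a log2 fold change of 2.08 (limma, adjusted p = 8.67e-09). Adjacent transcripts on chromosome F thus both rose, by very different factors.

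Abundant neighbours were also among those that rose. Gene 2910657 (YALI1_D06131g), next to gene 2910658 (YALI1_D06195g), had 193.72, 204.84 and 200.69 FPKM in C24 and 997.88, 955.32 and 920.4 FPKM in A24 (limma, adjusted p = 3.93e-09). The member beside it had 28.95, 26.57 and 26.79 FPKM in C24 and 78.83, 79.68 and 78.22 FPKM in A24. Gene 2912553 (YALI1_E39171g), next to gene 2912701 (YALI1_E39128g), had 755.59, 798.92 and 764.78 FPKM in C24 and 2464.35, 2391.32 and 2480.72 FPKM in A24 (limma, adjusted p = 7.05e-09). Here too both genes of the pair rose, since the member had 9.08, 8.63 and 9.28 FPKM in C24 and 20.75, 21.66 and 21.81 FPKM in A24. Reads shared between neighbours were not tested.

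The remaining neighbours past the thresholds were of lower level. Genes 2906827 (YALI1_B25223g) and 2909904 (YALI1_C28310g), next to genes 2907410 and 2909903, rose from means of 2.683 and 2.523 to 6.807 and 5.17 FPKM (limma, adjusted p = 7.25e-05 and 0.000121). In the opposite direction to the member beside it, gene 2912838 (YALI1_E15502g) fell from 19.34, 14.96 and 16.19 FPKM in C24 to 3.3, 4.27 and 2.95 FPKM in A24 (limma, adjusted p = 2.28e-06). Its neighbour, gene 2912839 (YALI1_E15521g), had 7.38, 7.47 and 8.35 FPKM in C24 and 31.76, 28.49 and 34.32 FPKM in A24. The pair thus changed places, with the first the higher in each C24 library and the second in each A24 library. Genes 2905790 (YALI1_A09553g), 2909355 (YALI1_C21578g) and 2909150 (YALI1_C01356g), next to genes 2905800, 2909354 and 2909151, fell from means of 7.253, 4.373 and 1.717 to 2.03, 1.257 and 0.7467 FPKM (limma, adjusted p = 7.12e-06, 0.000391 and 0.00406).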

How the data were processed

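Libraries of total RNA without rRNA were sequenced on the BGISEQ-500 platform, and reads were filtered with SOAPnuke. The authors calculated expression with RSEM and deposited FPKM values per transcript, rounded to 2 decimals. The submitters' notes name RSEM 1.2.12, HISAT2 2.0.4, Bowtie2 2.2.5 and DESeq2 1.4.5. The genome build is not given in the sources used here. FPKM values are relative to each library, so a change of abundant transcripts shifts all others.

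Strains were compared over 6052 transcripts with limma 3.58.1 in R 4.3.3 on log2(FPKM + 0.1), with a trend and without a block. The pseudocount makes changes of weak transcripts smaller. An exact permutation test of 3 against 3 libraries cannot give a p below 0.10. NOISeq, named in the methods, was not run. The limma script was tested on simulated data. Python 3.11.15 with pandas 2.3.3 served for tables and matplotlib 3.10.9 for plots.

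The members and lists were chosen with earlier results of these data known. The transcripts named are the 10 largest ratios, the 5 highest means, 5 on each side of the ratio of 2, the 3 smallest gaps, the 3 largest coefficients of variation, members short of a threshold and neighbouring members. Planned comparisons of promoters and proteins, and of the genes named by the study, were not made, since the tables used hold no sequences and no YALI0 tags. No coordinates of the RefSeq table are given, since its strain differs. Alternatives were other pseudocounts, filters and scalings, eBayes without a trend, a replicate block, the adjusted p alone, medians, and leaving out each library.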

Additional observations from a re-analysis of the deposited data

How the results depend on the processing

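The number of members stayed between 81 and 118 in all settings tried, with 96 to 102 when 1 library was left out, and 81 to 96 of the 96 were kept (87 to 93 with 1 library left out). Of the 96, 84 (equal FPKM totals) to 96 passed the limma thresholds in the settings tried, 91 to 94 with 1 library left out. Their median log2 fold change of 1.36 was 1.31 with a pseudocount of 1, 1.45 with median-of-ratios scaling, 1.29 with equal FPKM totals, and 1.33 to 1.38 with each library left out. The median coefficient of variation was 4.36 to 6.15% in A24 and 5.16 to 6.44% in C24 with each library of the strain left out. Over all transcripts, 233 were higher and 164 lower in A24. The higher count was 203 with a pseudocount of 1, 236 without a filter and 172 with a filter of 10 FPKM. The lower count was 101, 249 and 54 in the same order. The filter of 10 FPKM leaves fewer transcripts to test. With median-of-ratios scaling 272 were higher and 131 lower, and with equal FPKM totals 204 and 193. The cause of the other changes was not tested. The adjusted p-value alone gave 1620 higher and 2447 lower, and leaving out each library gave 221 to 237 and 151 to 177. With the replicate number as a block, 233 were higher and 166 lower, 95 members passed and their median stayed at 1.36. Deviations from the strain means correlated at -0.02, 0.04 and 0.08 between libraries of equal number, so the numbers were not taken as pairs, and not every library correlated best with its own number. For the named transcripts, 346 of the alternative values kept their side of the thresholds, 27 lost it and 17 gained it, and none changed direction.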
